A study of Mus musculus with 12 samples.

Results

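The guanylate-binding proteins (Gbp) and the immunity-related GTPases (Irg) are families of large GTPases that interferons switch on in macrophages. The genes described here are 5 of the Gbp family (Gbp2, Gbp3, Gbp5, Gbp6 and Gbp7), 3 regulators of the Irg family (Irgm1, Irgm2 and Igtp, the last also known as Irgm3) and 2 Irg effectors (Iigp1, also known as Irga6, and Tgtp1, also known as Irgb6). They were taken by symbol from the 23420 gene rows of the count table, and 10 of 10 symbols were found. The level of 9 of them was high enough for testing among 11806 genes tested, and Tgtp1 was too low.

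The libraries are bulk RNA-seq of macrophages sorted from the nucleated cells of the bone marrow of C57BL/6 mice. In each of 2 animals, numbered 7 and 19, the tibia received mesenchymal stromal cells (MSCs), fibroblast-like support cells of the marrow, and the femur of the same animal was left alone. The labels call the tibia cells MSC-educated macrophages. The numbers 7 and 19 come from the library titles and were taken here as the 2 animals. Each bone of each mouse gave 3 libraries, which makes 12 in all, 6 per bone. The sources used here do not state whether these animals carried leukaemia, which the series title names, how and when the MSCs were applied, or any age or genotype beyond the strain. Treatment went with the tibia in both animals, so it and the bone cannot be told apart. The labels do not say whether the 3 libraries of a bone came from separate sorts, so p-values over libraries measure only the spread between these libraries, which may be technical.

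Interferon gamma acts through the receptor chains Ifngr1 and Ifngr2 on promoter elements known as GAS, and it induces Irf1, a transcription factor that binds a further element known as ISRE. Type I interferons act on ISRE elements as well. The Gbp proteins assemble on vacuoles and on the surface of intracellular bacteria, open them to the cytosol and so bring bacterial ligands to inflammasomes. The Irg effectors coat and break the vacuoles of parasites such as Toxoplasma, while Irgm1, Irgm2 and Igtp sit on the cell's own membranes and keep the effectors inactive there.

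Most of the promoters found for these genes hold matches to the core letters of ISRE or GAS elements. The stretches below show where these matches lie. Sequences come from the RefSeq promoter table for GRCm38.p6, the assembly that mm10 names, in which 8 of the 10 genes were found. Gbp6 and Iigp1 were not among them. The 250 bases before each start were searched on both strands for an ISRE core, GAAANNGAAA, and a GAS core, TTCNNNGAA. The table holds 9 promoters of these 8 genes, 2 of them of Gbp3. An ISRE core lay in 8 of the 9 promoters (88.9%), against 2.98% of all 32851 promoters in the table. The promoter of Gbp3 that starts further along the gene held 0 matches to either core. A GAS core lay in 5 of the 9 (55.6%), those of Gbp5, Gbp7, Tgtp1, Igtp and Irgm2, against 7.02% of all promoters. The 120 bases before the start follow, 5′ to 3′ on the strand of the gene, with matches to either core in capitals. Those of the 2 promoters of Gbp3 are left out. The first held 2 ISRE cores, at 45 to 36 and 39 to 30 bases before its start, and the second held 0 matches. An ISRE core on the reverse strand reads TTTCNNTTTC here.
Igtp, chr11:58199436-58199555, plus strand: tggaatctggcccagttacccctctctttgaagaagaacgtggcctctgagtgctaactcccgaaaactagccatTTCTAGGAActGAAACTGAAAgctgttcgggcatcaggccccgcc
Irgm2, chr11:58214857-58214976, plus strand: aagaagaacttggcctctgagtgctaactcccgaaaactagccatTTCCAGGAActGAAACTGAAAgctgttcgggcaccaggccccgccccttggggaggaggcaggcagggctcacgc
Tgtp1, chr11:48992247-48992366, minus strand: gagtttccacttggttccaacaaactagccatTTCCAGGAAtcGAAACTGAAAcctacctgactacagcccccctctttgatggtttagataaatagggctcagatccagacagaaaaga
Irgm1, chr11:48871421-48871540, minus strand: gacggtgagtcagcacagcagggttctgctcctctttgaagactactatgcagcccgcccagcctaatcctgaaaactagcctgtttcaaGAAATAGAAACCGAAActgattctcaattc
Gbp2, chr3:142620543-142620662, plus strand: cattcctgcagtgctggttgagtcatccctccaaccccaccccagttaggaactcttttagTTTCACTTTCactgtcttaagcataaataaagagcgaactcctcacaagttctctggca
Gbp7, chr3:142530216-142530335, plus strand: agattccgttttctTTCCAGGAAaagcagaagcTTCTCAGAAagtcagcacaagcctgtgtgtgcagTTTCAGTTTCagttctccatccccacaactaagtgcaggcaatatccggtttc
Gbp5, chr3:142496814-142496933, plus strand: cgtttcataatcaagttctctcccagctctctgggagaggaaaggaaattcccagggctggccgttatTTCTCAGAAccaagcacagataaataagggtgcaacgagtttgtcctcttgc

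In Igtp, Irgm2 and Tgtp1 a GAS core was followed, 2 bases later, by an ISRE core. The pair ended 25 bases before the start in Igtp, 55 bases before it in Irgm2 and 68 bases before it in Tgtp1. This arrangement occurred in 5 of the 32851 promoters (0.0152%), those of Igtp, Irgm2, Tgtp1, Tgtp2 and the Irg-related Gm12185. The stretches of Igtp and Irgm2 are nearly alike around the pair, Tgtp2 is a near copy of Tgtp1, and Gm12185 overlaps Tgtp1 on the same strand. These 5 promoters cannot be counted as independent. Irgm1 held 2 overlapping ISRE cores, from 30 to 21 and from 24 to 15 bases before its start. The ISRE core of Gbp2 lay on the reverse strand, 59 to 50 bases before the start, and that of Gbp7 at 53 to 44 bases. In Gbp5 the GAS core shown lay at 52 to 44 bases and its ISRE core further up, at 165 to 156 bases. A match is a description of the letters, and binding was not measured.

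Per the GRCm38.p6 annotation, Gbp5 (142496934 to 142522344), Gbp7 (142530336 to 142550151), Gbp3 (142560016 to 142573213) and Gbp2 (142620663 to 142638008) lie in this order on the plus strand of chromosome 3. Gbp6 lies on the minus strand of chromosome 5 (105270702 to 105295871) and Iigp1 on the plus strand of chromosome 18 (60373616 to 60392634). On chromosome 11 Irgm1 (48865245 to 48871420) and Tgtp1 (48985329 to 48992246) lie on the minus strand, and Igtp (58199556 to 58207592) and Irgm2 (58214977 to 58222783) on the plus strand. The table gives 1 value per gene, not per exon.

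Total counts ran from 9773455 to 14869150 per library, with 13524 to 13902 genes detected. Of 10 macrophage markers 10 were detected in each group, with a summed level of 15862 to 19539 CPM (counts scaled to the TMM-adjusted library size). A fragment mostly entered the table as 2 counts, so a count of 0 in a library allows up to 3 fragments, or 0.404 to 0.617 CPM, which covers counting error only.

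Per kilobase of exon the order in the untreated femur of mouse 7 ran from Gbp2 (26.2 ± 1.55 CPM per kb, mean ± SD, n = 3 libraries), Gbp3 (20.3 ± 1.75), Igtp (18.2 ± 0.56), Irgm2 (16.4 ± 0.61), Irgm1 (14.9 ± 0.69) and Gbp7 (11.7 ± 1.13) down to Gbp5 (3.77 ± 0.35). Iigp1 (0.448 ± 0.182), Gbp6 (0.412 ± 0.144) and Tgtp1 (0.193 ± 0.111) were the lowest. The 3 regulators of the Irg family thus stood far above these 2 effectors. Of the 75-base windows in the transcripts of Tgtp1, 77.2% also occur in other genes, so its level is uncertain. Gm12250, an Irg effector outside the 10 genes, stood at 33.1 CPM in that femur, against 36.8 CPM for Igtp, without scaling to exon length. In the order per kilobase Gbp3 and Igtp, Iigp1 and Gbp6, and Gbp6 and Tgtp1 are neighbours whose means differed by less than their summed SDs. In mouse 19 the same 7 genes were the highest in both bones, with Gbp2 at 14.8 ± 1.29 in the femur and 15.5 ± 0.42 in the tibia.

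**Figure D1:**
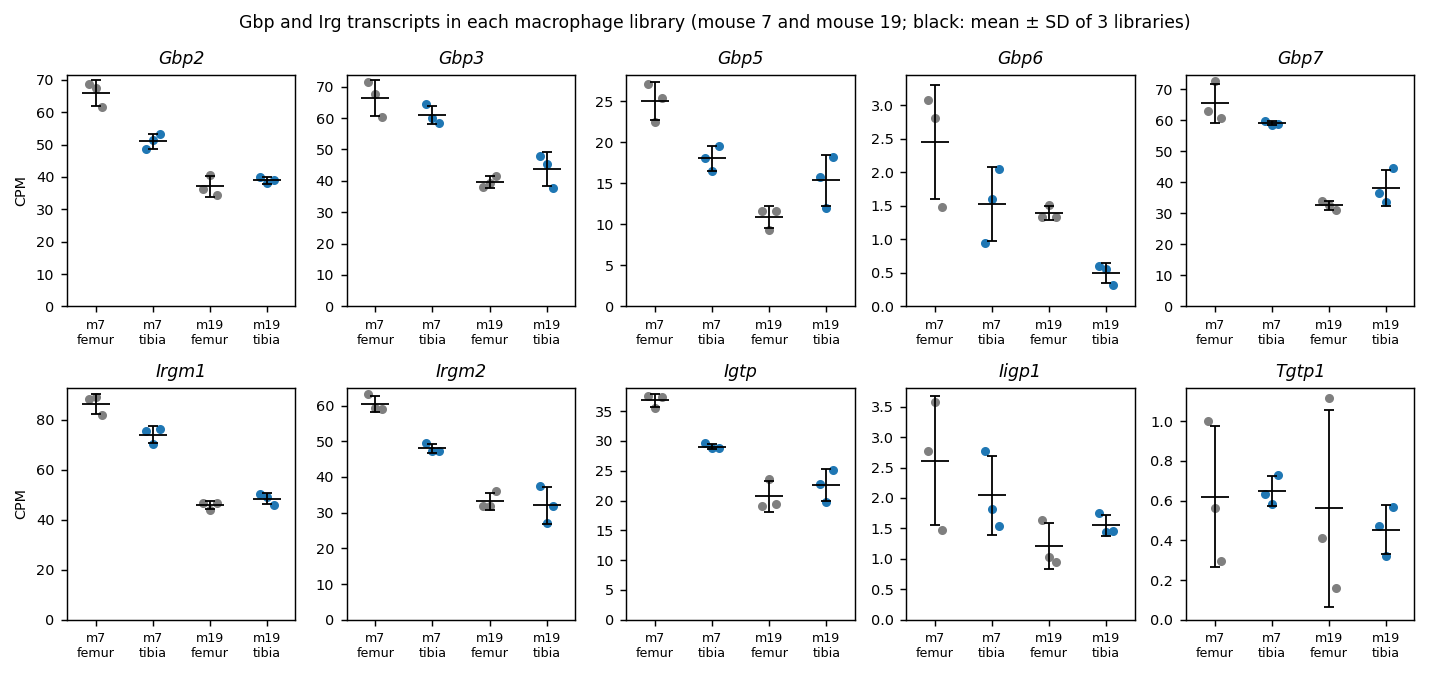
Level of each of the 10 genes in CPM (vertical axis, linear, 1 scale per panel) in the 3 libraries of each bone of each mouse (points), with the mean ± SD (bars, n = 3). In Gbp2, Gbp3, Gbp7, Irgm1, Irgm2 and Igtp all 6 libraries of mouse 19 lie below all 6 of mouse 7.

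The Gbp genes of the chromosome 3 cluster are given first. Gbp2, which gathers on bacteria and vacuoles and carries a lipid anchor, stood at 68.9, 67.5 and 61.6 CPM in the femur of mouse 7 and at 48.5, 51.5 and 53.1 in its tibia, and at 36.2, 40.7 and 34.4 in the femur of mouse 19 and 40.1, 38.0 and 39.0 in its tibia. The bones did not overlap in mouse 7, where the tibia was lower, as in 14.4% of all tested genes, and overlapped in mouse 19. Gbp5, a lipid-anchored member that has been tied to inflammasome activity, stood at 27.2, 22.5 and 25.4 CPM in the femur and 18.1, 16.5 and 19.6 in the tibia of mouse 7, and at 11.6, 9.33 and 11.6 in the femur and 15.8, 12.05 and 18.3 in the tibia of mouse 19. Its bones did not overlap in either mouse, with the tibia lower in mouse 7 and higher in mouse 19, and all 3 tibia libraries above all 3 femur libraries were seen in 10.8% of all tested genes in mouse 19. Gbp7, a member of the same cluster, stood at 62.8, 72.6 and 60.8 against 59.7, 58.5 and 58.8 CPM in mouse 7, and at 33.9, 32.7 and 31.1 against 36.4, 33.5 and 44.4 in mouse 19, femur against tibia. In mouse 7 the tibia of Gbp7 lay below the femur, and in mouse 19 the bones overlapped. Gbp3 stood at 71.5, 67.5 and 60.2 against 64.3, 60.0 and 58.6 CPM in mouse 7, and at 38.1, 39.2 and 41.6 against 47.9, 45.5 and 37.6 in mouse 19. Its bones overlapped in both mice.

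Gbp6, from the second Gbp cluster on chromosome 5, was at a low level, 3.08, 2.81 and 1.48 CPM in the femur and 0.95, 1.60 and 2.04 in the tibia of mouse 7, and at 1.34, 1.51 and 1.34 in the femur and 0.607, 0.562 and 0.323 in the tibia of mouse 19. The bones overlapped in mouse 7, and in mouse 19 the tibia was lower in every library, as in 10.3% of all tested genes. These values rest on 100 and 62 counts in mouse 7 and 49 and 20 counts in mouse 19. Of the 75-base windows in its transcripts, 67.3% also occur in other genes, most often in an overlapping gene model on the same strand (Gm43302). Its counts are therefore uncertain.

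Among the Irg regulators, Irgm1, which marks the cell's own membranes against attack by the effectors, stood at 88.3, 89.4 and 82.0 CPM in the femur and 75.6, 70.2 and 76.4 in the tibia of mouse 7, and at 46.8, 43.9 and 46.6 in the femur and 50.2, 49.0 and 45.9 in the tibia of mouse 19. Irgm2, a further regulator, stood at 63.2, 59.4 and 59.2 against 49.5, 47.3 and 47.3 CPM in mouse 7 and at 31.9, 31.9 and 36.0 against 37.4, 27.1 and 31.9 in mouse 19. Igtp stood at 37.5, 35.5 and 37.4 against 29.6, 28.8 and 28.8 CPM in mouse 7 and at 19.0, 23.7 and 19.4 against 22.7, 19.8 and 25.1 in mouse 19. In all 3 regulators the bones of mouse 7 were apart, with the tibia lower as in 14.4% of all tested genes, and the bones of mouse 19 overlapped. Igtp and Irgm2 are neighbours on chromosome 11. Their gene models overlap on 1 strand in GENCODE M21, though not at the coordinates given above. Of the windows of Igtp, 7.80% also occur in other genes, most often in Irgm2.

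Both effectors were at low levels. Iigp1 stood at 2.77, 3.58 and 1.48 CPM in the femur and 2.77, 1.82 and 1.53 in the tibia of mouse 7, and at 1.65, 1.04 and 0.944 in the femur and 1.75, 1.45 and 1.45 in the tibia of mouse 19. Tgtp1 had 25, 26, 20 and 18 counts in the femur and tibia of mouse 7 and the femur and tibia of mouse 19, and 77.2% of its windows also occur in other genes, chiefly its near copy Tgtp2. Both genes overlapped between the bones in each mouse.

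The first comparison asked whether the members differ, within 1 animal, between macrophages from the bone that received MSCs and from the bone that did not. In mouse 7 the edgeR quasi-likelihood test called 5 members lower and 0 higher in the tibia, against 5.36% of all tested genes called lower and 4.37% called higher, at a Benjamini-Hochberg adjusted p under 0.05. Gbp2 fell by 22.6% (log2 fold change -0.37 ± 0.07 SE, adjusted p = 5.6e-04) and Irgm2 fell by 20.7% (-0.34 ± 0.08, 0.00597). Gbp5 fell by 27.8% (-0.47 ± 0.12, 0.0122), Igtp fell by 21.1% (-0.34 ± 0.09, 0.013) and Irgm1 fell by 14.4% (-0.23 ± 0.06, 0.012). No member was higher in the tibia at an unadjusted p under 0.05, and DESeq2 also called 0 higher. Gbp7 (-0.15 ± 0.08, 0.256), Gbp3 (-0.12 ± 0.07, 0.342), Gbp6 (-0.67 ± 0.36, 0.268) and Iigp1 (-0.36 ± 0.34, 0.572) did not pass. Over the 9 tested members the median log2 change was -0.34, against -0.0072 over all tested genes. In 6 of the 10 genes, Gbp7 among them, all 3 tibia libraries lay below all 3 femur libraries, against 14.4% of all tested genes. Gbp2 and Irgm2 passed without any 1 library. The call of Gbp5 in mouse 7 ended without its femur library 1 or its tibia library 2 (adjusted p = 0.0792 and 0.0761), that of Igtp without femur 1 or tibia 3 (0.0527 and 0.052), and that of Irgm1 without femur 1, femur 2 or tibia 2 (0.0584, 0.0694 and 0.0852).

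Mouse 19 gave other values. Gbp5 rose by 41.9% (log2 fold change 0.50 ± 0.14, edgeR adjusted p = 0.0282) and was the 1 member called higher, against 2.96% of all tested genes. No member was called lower, against 2.21% of all tested genes, although 1 was lower at an unadjusted p under 0.05 (Gbp6, -1.46 ± 0.47, adjusted p = 0.0689), and DESeq2 called 0 lower. The other members ran from -0.05 ± 0.09 in Irgm2 to 0.40 ± 0.40 in Iigp1, with Gbp2 at 0.07 ± 0.07, Gbp3 at 0.14 ± 0.08, Gbp7 at 0.23 ± 0.09, Irgm1 at 0.08 ± 0.06 and Igtp at 0.12 ± 0.10. The median over the 9 tested members was 0.12. The call of Gbp5 was lost in a fit of mouse 19 alone (adjusted p = 0.0622) and without femur library 1 (0.0502), femur library 2 (0.17), tibia library 1 (0.0982) or tibia library 3 (0.148) of that mouse.

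**Figure D2:**
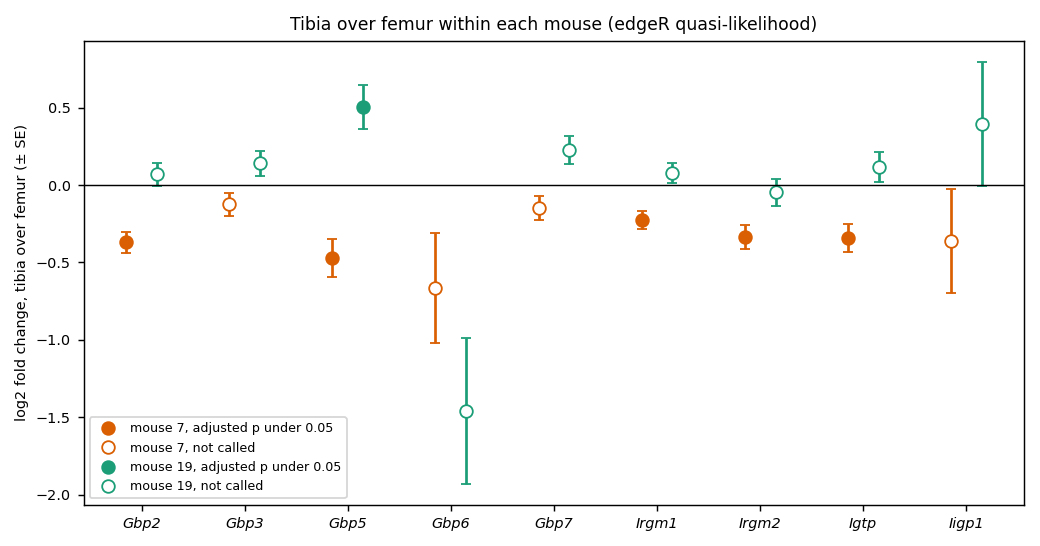
Log2 fold change of tibia over femur (vertical axis) in mouse 7 and in mouse 19 for the 9 tested genes (horizontal axis). Each point has its SE and is filled where the edgeR adjusted p is under 0.05. In mouse 7 all 9 points lie below 0 and 5 are filled, and in mouse 19 the 1 filled point is Gbp5 at 0.50.

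The difference between the animals was tested itself. The tibia over femur change was more positive in mouse 19 than in mouse 7 by 0.97 ± 0.19 on the log2 scale in Gbp5 (edgeR adjusted p = 0.00111), by 0.44 ± 0.10 in Gbp2 (0.00706), by 0.46 ± 0.13 in Igtp (0.0422) and by 0.31 ± 0.09 in Irgm1 (0.0368). These 4 of 9 tested members compare with 2.89% of all tested genes called in that direction and 1.85% in the other. More negative in mouse 19 were 0 members, with 0 at an unadjusted p under 0.05 and 0 by DESeq2. Gbp7 (0.38 ± 0.12, 0.0627) and Irgm2 (0.29 ± 0.12, 0.213) did not pass. Of the 9 tested members 7 had opposite signs in the 2 mice, as had 43.1% of all tested genes. The differences in Gbp2 and Gbp5 passed without any 1 library. Those in Igtp and Irgm1 did not (adjusted p up to 0.154 and 0.121). Igtp failed without each of 10 libraries and passed without femur 2 or tibia 2 of mouse 19. Irgm1 failed without each of 9 libraries and passed without femur 3 or tibia 3 of mouse 7 or tibia 3 of mouse 19.

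Over both mice together, 1 member differed between the bones. The model with the mouse as a term called 1 member lower in the tibia, Gbp6 (log2 fold change -0.95 ± 0.29, edgeR adjusted p = 0.0424), against 3.69% of all tested genes, and 0 higher, against 3.51%, with 0 higher at an unadjusted p under 0.05 and 0 by DESeq2. Gbp6 failed without each of 10 of the 12 libraries (adjusted p = 0.0621 to 0.109), and passed without femur 3 or tibia 3 of mouse 7. Irgm2 (-0.20 ± 0.07, 0.0677) and Gbp2 (-0.17 ± 0.07, 0.149) did not pass, nor did Irgm1 (-0.09 ± 0.05), Igtp (-0.13 ± 0.08), Gbp5 (-0.04 ± 0.14), Iigp1 (-0.05 ± 0.26), Gbp3 (-0.0025 ± 0.06) or Gbp7 (0.02 ± 0.07). The median over the members was -0.09, against -0.0021 over all tested genes. With the counts of each bone of each mouse summed, so that the animal is the unit, 0 members were called in either direction, against 0.407% of all tested genes called higher and 0.144% lower. In that fit 2 members were lower at an unadjusted p under 0.05, Gbp6 at -0.97 ± 0.32 (edgeR adjusted p = 0.292) and Irgm2 at -0.19 ± 0.08 (0.437).

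A larger contrast in these genes lay between the animals, with a median log2 difference of -0.86 over the 9 tested members. In the untreated femur 8 of the 9 tested members were lower in mouse 19 than in mouse 7, and 0 higher, against 14.3% of all tested genes called lower and 14.1% called higher. No member was higher at an unadjusted p under 0.05 or by DESeq2. Relative to mouse 7, Irgm1 fell by 47.1% (log2 difference -0.92 ± 0.06, edgeR adjusted p = 1.1e-12), Gbp7 fell by 50.3% (-1.01 ± 0.08, 1.0e-10) and Gbp2 fell by 43.7% (-0.83 ± 0.07, 2.0e-10). Irgm2 stood at -0.86 ± 0.08, Igtp at -0.82 ± 0.09, Gbp3 at -0.74 ± 0.08, Gbp5 at -1.21 ± 0.13 (adjusted p = 6.2e-08 or less in these 4) and Iigp1 at -1.14 ± 0.37 (0.0219). Gbp6 did not pass (-0.81 ± 0.37, 0.105). The call of Iigp1 ended without each of 4 femur libraries, 2 and 3 of mouse 19 and 1 and 2 of mouse 7 (adjusted p = 0.0588 to 0.16), and the other 7 calls were kept without any 1 library. Across both bones, 6 of the 10 genes had all 6 libraries of mouse 19 below all 6 of mouse 7, against 5.97% of all tested genes. There is 1 animal on each side, so this compares the libraries of mouse 19 with those of mouse 7. The femur libraries also enter the changes within each mouse, so these values are not independent of each other. Summed over the 10 genes, the level was 412 ± 19.7 CPM in the femur and 344 ± 6.77 in the tibia of mouse 7, and 223 ± 2.08 and 242 ± 13.3 in mouse 19 (mean ± SD, n = 3 libraries). In bulk samples fewer cells of a type and less RNA per cell cannot be told apart.

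The remaining genes of both families followed in part. Of 22 listed, 13 were tested. In mouse 7 the tibia was lower in 6 and higher in 0 (median log2 change -0.33), against 5.36% and 4.37% of all tested genes. In mouse 19 edgeR called 0 of the 13 in either direction (median -0.11), with 1 higher and 2 lower at an unadjusted p under 0.05 and 0 by DESeq2. In the tibia of mouse 19 edgeR called 2.21% of all tested genes lower and 2.96% higher. In the femur 7 of the 13 were lower in mouse 19 and 0 higher (median -0.72), against 14.3% and 14.1% of all tested genes. Tgtp2, the effector nearly identical to Tgtp1, fell by 1.07 on the log2 scale in mouse 7 (SE 0.28, edgeR adjusted p = 0.0139) and by 0.88 over both mice (SE 0.21, 0.0115). The call of Tgtp2 over both mice ended with no mouse term (adjusted p = 0.119) and on counts summed per animal (0.137). Most windows of Tgtp1 also occur in other genes, chiefly Tgtp2, so the counts of Tgtp2 are uncertain as well. Gm12250, also known as Irgb10, an Irg effector that attacks bacterial membranes, fell by 0.36 in mouse 7 (SE 0.10, 0.0162), and Gbp8 by 0.87 (SE 0.25, 0.0235). Each of these calls within mouse 7 was lost without at least 1 of its libraries, with adjusted p up to 0.0911, 0.104 and 0.188. Gbp9 was the 1 gene of the list whose change differed between the mice (0.68 ± 0.16, 0.00672). Of all tested genes 2.89% were called in that direction.

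The receptor and its signalling genes are upstream of the members. Transcripts of interferon gamma itself, Ifng, summed to 4, 4, 2 and 4 counts in the 4 groups of libraries, at or below the limit that a count of 0 allows, so no fold is given. Of 12 T cell and NK cell markers, cells that make interferon gamma, 5 were tested. By edgeR and by DESeq2, 0 were called in the tibia of either mouse, and at an unadjusted p under 0.05 there was 1 higher and 1 lower in mouse 7 and 0 in mouse 19. All 12 were detected in each group. Their summed level was 11.4 to 18.9 CPM in the femur and 15.5 to 17.7 in the tibia of mouse 7, and 22.2 to 31.9 and 22.1 to 28.6 in mouse 19. In the femur 1 of the 5 tested was higher in mouse 19 and 0 lower, by edgeR and by DESeq2. Of all tested genes edgeR called 14.1% higher and 14.3% lower there. The 1 marker called was Nkg7, a granule gene of cytotoxic cells (1.04 ± 0.17, edgeR adjusted p = 1.5e-05). Ifngr1, the ligand-binding chain, stood at 432 ± 8.35 and 408 ± 1.19 CPM in the femur and tibia of mouse 7 and at 345 ± 12.9 and 395 ± 15.6 in mouse 19 (mean ± SD, n = 3). It rose in the tibia of mouse 19 (log2 fold change 0.19 ± 0.04, edgeR adjusted p = 0.0017), not in mouse 7 (-0.08, 0.194), and that difference passed (0.28 ± 0.05, 0.00157). Ifngr2 passed in neither mouse (-0.07, 0.301, and 0.04, 0.675). In the femur both chains were called lower in mouse 19 than in mouse 7. With 1 library left out, the log2 difference ran from -0.354 to -0.299 in Ifngr1 (edgeR adjusted p up to 5.9e-06). For Ifngr2 it ran from -0.262 to -0.236 (up to 4.1e-04).

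Irf1 stood at 130.1 ± 4.09 CPM in the femur and 113 ± 1.04 in the tibia of mouse 7 and at 98.4 ± 1.65 and 99.2 ± 1.66 in mouse 19 (mean ± SD, n = 3). It fell in the tibia of mouse 7 (log2 fold change -0.21 ± 0.05, edgeR adjusted p = 0.00534) and stood at 0.01 (0.941) in mouse 19, with no difference called (0.22, 0.0704). In the femur Irf1 was lower in mouse 19 than in mouse 7, by -0.40 ± 0.05 (2.0e-07). Of the 14 tested genes of interferon gamma signalling, the tibia was lower in 4 and higher in 0 in mouse 7, and lower in 1 and higher in 2 in mouse 19. In the femur 8 were lower and 1 was higher in mouse 19, against 14.3% and 14.1% of all tested genes. In the tibia those shares were 5.36% and 4.37% in mouse 7 and 2.21% and 2.96% in mouse 19.

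Other targets of interferons were in part lower in the tibia of mouse 7 and in part higher in that of mouse 19. The shares of all tested genes were 5.36% lower and 4.37% higher in mouse 7, and 2.21% and 2.96% in mouse 19. In the femur 14.3% were lower and 14.1% higher in mouse 19. The change was more positive in mouse 19 in 2.89%. Of 24 tested type I interferon response genes, edgeR called 16 lower and 0 higher in the tibia of mouse 7, and 6 higher and 0 lower in that of mouse 19. DESeq2 called 15 and 6, with 0 in the reverse direction, where edgeR gave 0 in mouse 7 and 1 in mouse 19 at an unadjusted p under 0.05. The change differed between the mice in 15, all more positive in mouse 19, and in the femur 24 of 24 were lower in mouse 19. The list medians were -0.30, 0.18, 0.48 and -1.08, in that order, against -0.34, 0.12, 0.38 and -0.86 for the Gbp and Irg members. Oas2, which makes the activator of an antiviral RNase, stood at 146 ± 6.60 CPM in the femur and 106 ± 2.57 in the tibia of mouse 7, and at 40.6 ± 1.80 and 55.0 ± 2.83 in mouse 19. It fell by 0.47 on the log2 scale in mouse 7 (SE 0.05, edgeR adjusted p = 8.9e-07) and rose by 0.44 in mouse 19 (SE 0.06, 2.3e-05). Rtp4, an interferon-induced chaperone of receptors, fell by 0.65 (SE 0.10, 1.1e-04) and rose by 0.64 (SE 0.13, 0.00194) likewise. Of 19 tested interferon gamma response genes 5 were lower and 0 higher in the tibia of mouse 7, and 4 higher and 0 lower in that of mouse 19 (6 and 5 by DESeq2). Among them Ciita, the master switch of MHC class II, fell by 0.46 in mouse 7 (SE 0.10, 0.00236) and rose by 0.57 in mouse 19 (SE 0.11, 9.1e-04), while the T cell chemokine gene Cxcl9 fell by 1.18 in mouse 7 (SE 0.23, 0.00119). Nos2, the inducible nitric oxide synthase, did not follow the members. It had 3 counts in the femur and 9 in the tibia of mouse 7, and 16 and 122 in mouse 19. It rose in the tibia of mouse 19 (log2 fold change 2.72 ± 0.47, edgeR adjusted p = 2.6e-04) and over both mice (2.53 ± 0.42, 4.7e-04). Its change did not pass in mouse 7 (1.49 ± 1.00, 0.399), nor did mouse 19 against mouse 7 in that change (1.23 ± 1.42, 0.771). The call over both mice ended with no mouse term (adjusted p = 0.207). On counts summed per animal Nos2 was the 1 gene of the list that passed (2.54 ± 0.45, 0.0374), and that call was lost without any 1 of 7 of the 12 libraries (adjusted p up to 0.316). In the femur it was called higher in mouse 19 (adjusted p = 0.0353), opposite to the members, and that call was lost with halved counts (0.0873) and without any 1 of 4 libraries (up to 0.149).

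**Figure D3:**
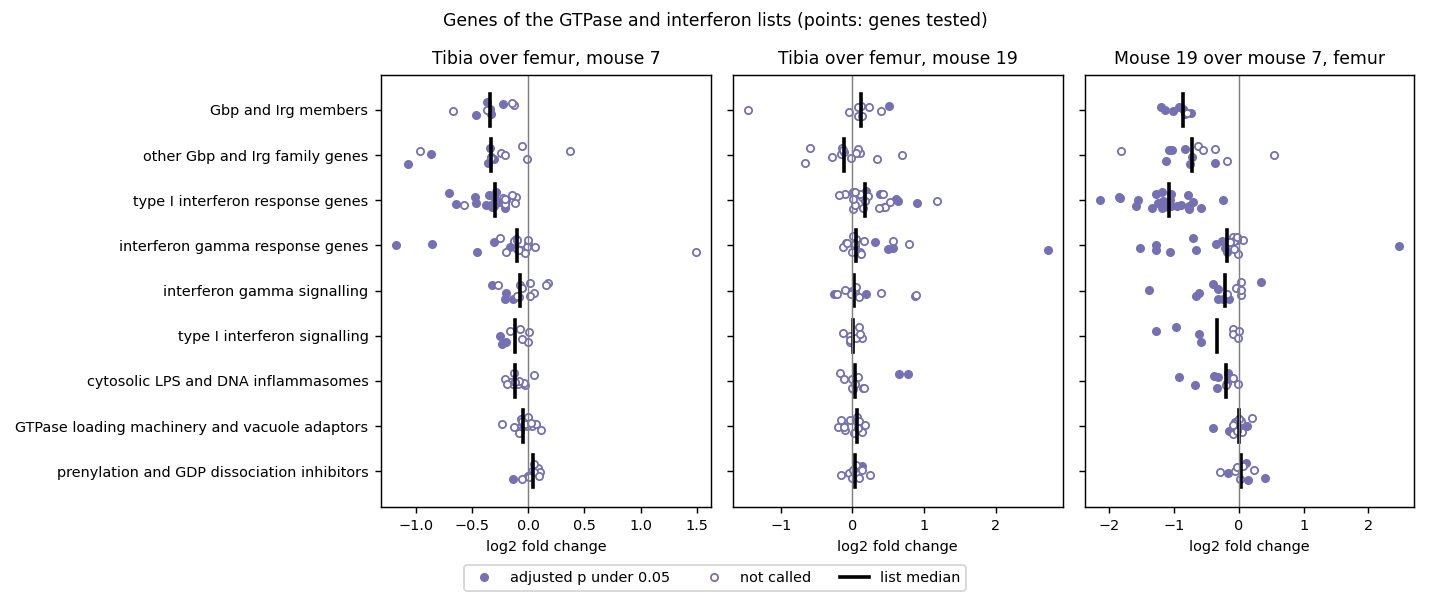
Log2 fold changes (horizontal axis) of the tested genes of 9 lists, 1 row per list, for tibia over femur in mouse 7, tibia over femur in mouse 19, and mouse 19 over mouse 7 in the femur (3 panels). Points are genes, filled where the edgeR adjusted p is under 0.05, and bars are list medians. The Gbp and Irg members and the type I interferon response genes lie mostly below 0 in the panels of mouse 7 and of the femur, with medians of -0.34 and -0.30 and of -0.86 and -1.08.

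In the tibia, edgeR called 5.36% of all tested genes lower and 4.37% higher in mouse 7, and 2.21% and 2.96% in mouse 19. It called 14.3% lower and 14.1% higher in the femur of mouse 19, and 3.69% and 3.51% over both mice. Genes that work with the Gbp and Irg GTPases were tested as 3 lists. Of 15 genes of the machinery that loads them onto vacuoles and of its adaptors, such as those of the ubiquitin-like autophagy system, edgeR and DESeq2 called 0 in the tibia of either mouse (at an unadjusted p under 0.05, 1 lower in mouse 7, and 2 higher and 1 lower in mouse 19), and 1 higher and 2 lower in the femur of mouse 19. Of 10 genes for the lipid anchoring of proteins and for GDP dissociation inhibitors, the tibia was lower in 1 in mouse 7 and higher in 1 in mouse 19. In the femur edgeR called 3 of these 10 higher and 1 lower in mouse 19 (3 and 0 by DESeq2). Of 11 genes of the inflammasomes that sense bacterial lipopolysaccharide and DNA, edgeR called 0 in mouse 7 (3 lower at an unadjusted p under 0.05, 1 by DESeq2), 2 were higher in the tibia of mouse 19, and 8 were lower in the femur of mouse 19 than in that of mouse 7. Over both mice edgeR called the GDP dissociation inhibitor Gdi2 (0.10 ± 0.03, adjusted p = 0.0342), the cytokine gene Il1b (0.34 ± 0.10, 0.0464) and the DNA sensor gene Aim2 (-0.16 ± 0.05, 0.0417). Each of these calls was lost without at least 1 library and with no mouse term (0.206, 0.370 and 0.196), that of Il1b also by DESeq2 (0.119). Il1b rose in mouse 19 (0.77 ± 0.09, edgeR adjusted p = 5.7e-07).

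The marker lists below stand against the shares of all tested genes that edgeR called. These were 5.36% lower and 4.37% higher in the tibia of mouse 7, and 2.21% and 2.96% in that of mouse 19. In the femur of mouse 19 they were 14.3% lower and 14.1% higher. The change was more positive in mouse 19 in 2.89% and more negative in 1.85%. Markers of non-classical monocytes, patrolling cells of the blood vessels, moved in part with the members. All 6 were detected in each group. Their summed level was 1648 to 1732 CPM in the femur and 1449 to 1476 in the tibia of mouse 7, and 1235 to 1289 and 1260 to 1310 in mouse 19. In the tibia of mouse 7 edgeR called 4 lower and 0 higher, in that of mouse 19 it called 2 higher and 1 lower, and in the femur of mouse 19 it called 5 lower and 1 higher. Ace, a peptidase of these monocytes, fell by 0.54 on the log2 scale in mouse 7 (SE 0.06, adjusted p = 1.1e-06), rose by 0.42 in mouse 19 (SE 0.07, 2.3e-04) and was lower in the femur of mouse 19 (-1.67 ± 0.07, 1.7e-17). Treml4 fell by 0.45 (SE 0.07, 6.0e-05), rose by 0.51 (SE 0.08, 6.4e-05) and was lower by -1.24 ± 0.08 (1.3e-13) likewise. Cx3cr1, a chemokine receptor gene, and Itgal, an integrin gene, fell in mouse 7 by 0.32 (SE 0.05, 3.4e-05) and 0.24 (SE 0.03, 2.3e-05) and did not pass in mouse 19 (adjusted p = 0.224 and 0.987). Spn, a surface sialoglycoprotein gene, went the other way. It fell by 0.20 in mouse 19 (SE 0.04, 7.9e-04) and was higher in its femur (0.21 ± 0.04, 9.4e-05). The change differed between the mice in 5 of the 6, more positive in mouse 19 in 4 and more negative in Spn. Markers of neutrophils and their precursors, 8 of 8 matched ones detected, were higher in mouse 19, at 23318 to 27092 CPM in the femur and 26567 to 28708 in the tibia, against 15400 to 17039 and 16416 to 17442 in mouse 7. EdgeR called 8 of 8 higher in the femur of mouse 19, and in the tibia 4 higher and 0 lower in mouse 7 and 6 and 0 in mouse 19 (3 and 0 higher by DESeq2). Of 10 macrophage markers 2 were higher and 3 lower in the tibia of mouse 7, 6 higher and 0 lower in that of mouse 19, and 1 higher and 6 lower in the femur of mouse 19, and the change was more positive in mouse 19 in 5. Of 8 dendritic cell markers 4 were lower in the tibia of mouse 7 and 1 in that of mouse 19, with 0 higher, and 2 were higher and 2 lower in the femur of mouse 19. Bst2, lower in the tibia of mouse 7 and in the femur of mouse 19, is also among the type I interferon response genes. Of 6 classical monocyte markers 3 were lower and 0 higher in the tibia of mouse 7, 4 lower and 1 higher in that of mouse 19, and 4 lower and 2 higher in its femur. Of 7 B cell and plasma cell markers 1 was lower in the tibia of mouse 7 (0 by DESeq2), 0 were called in that of mouse 19 (1 lower at an unadjusted p under 0.05, 0 by DESeq2), and 5 were lower and 1 higher in the femur of mouse 19. The part of these cells in the results on the Gbp and Irg genes was not tested.

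Outside the members, the genes whose level over the 12 libraries was most like theirs were ranked by Pearson's r with the mean of their standardised log2 CPM, as a description in libraries that fall apart by mouse. The highest were Stx16, a syntaxin of membrane traffic (r = 0.992), Ms4a6b (0.990), the interferon-induced Slfn5 (0.987), the cytokine receptor gene Lifr (0.986), the chaperone genes Hsph1 (0.986) and St13 (0.982), the antiviral Oas3 (0.983), the ubiquitin ligase gene Trim25 (0.983), Gm12250 (0.983) and the RNA helicase gene Ddx17 (0.982). Within the 6 libraries of mouse 7 the same r ran from 0.873 for Oas3 to 0.971 for Ms4a6b, and within those of mouse 19 from 0.235 for Trim25 to 0.820 for Slfn5.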

How the data were processed

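Sorted marrow macrophages of 2 mice, 6 libraries per bone, were profiled by mRNA-seq with RNA from a column micro kit and Vazyme VAHTS libraries, per the labels. As deposited by the authors, the values are raw read counts in whole numbers, 1 column per library, and 0 columns were left unmapped. The submitters' processing notes name mm10, bcl2fastq, HISAT2, featureCounts, Subread and DESeq2. Versions, settings, strandedness and annotation were not given in the sources used here, so reads of overlapping genes and near copies can be split or lost. Of counts from 1 to 10, 69.8% were even, hence 2 counts per fragment.

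Counts were fitted with edgeR 4.0.16 in R 4.3.3 on all 12 libraries (quasi-likelihood test, TMM, filterByExpr over the 4 groups with its minimum of 10 counts, two-sided, Benjamini-Hochberg adjustment over 11806 genes, threshold 0.05). Tibia over femur over both mice had the mouse as a term. Contrasts within a mouse, their difference and the femur contrast used a fit in which each of the 4 groups has its own mean. The fit on counts summed per bone and mouse left 1 residual degree of freedom. The biological coefficient of variation was 6.26% with the mouse as a term. SE is the absolute log2 change over the square root of F. The 3 libraries of a group differed beyond sampling noise (1.37 to 3.13 chi-square per gene, halved counts) and were kept apart. The fit was also run on simulated data with a fixed spread and the same change in both mice. That run does not cover changes that differ between animals.

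Exon lengths and 75-base windows come from GENCODE M21, and promoters from RefSeq. The members and lists were chosen with earlier results of these data known. All members are named. Of other lists at most the 4 called genes with the largest absolute log2 change per comparison are named, with Irf1, Ifngr1, Ifngr2 and Ifng whatever their values (a further gene of this rule is not reported here), and the 10 genes most like the members. Alternatives were DESeq2 1.42.0, RLE size factors, other filters, halved counts, a replicate block, no mouse term, 1 mouse alone and leaving out each library.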

Additional observations from a re-analysis of the deposited data

Results flagged for a closer look

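The change from femur to tibia differed between mouse 7 and mouse 19 by the edgeR interaction test in 4 members, Gbp2 by 0.44, Gbp5 by 0.97, Irgm1 by 0.31 and Igtp by 0.46 on the log2 scale, and in the receptor gene Ifngr1 by 0.28. Each was more positive in mouse 19, and 2.89% of all tested genes were called in that direction. The calls of Igtp and Irgm1 were lost without single libraries (edgeR adjusted p up to 0.154 and 0.121). Gbp5 was the 1 member called in both mice, in opposite directions. Its call in mouse 19 was lost in a fit of that mouse alone (edgeR adjusted p = 0.0622). In either mouse the call of Gbp5 was lost without some single libraries. The groups hold 3 libraries each, too few for a check of single libraries that stand apart.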

How the results depend on the processing

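Of the counts of members called, that over both mice was the least stable. It was 1 lower, and 3 with no filter on low counts (Gbp2, Irgm2 and Gbp6), 0 with a filter of 5 CPM in 3 libraries, where Gbp6 is not tested, 0 with the replicate block and 0 with no mouse term (the cause was not tested). Leaving out 1 library gave 0 to 1, and the 1 without tibia library 1 of mouse 19 was Irgm2, not Gbp6. In mouse 7 the count stayed at 5 lower under the other settings and ran from 2 to 5 when 1 library was left out. In mouse 19 the 1 member higher became 0 in a fit of that mouse alone and 0 to 1 without 1 library, and the 0 lower became 1 with no filter (Gbp6). The 4 differences between the mice became 2 with the replicate block, which lost Igtp and Irgm1 (adjusted p = 0.0664 and 0.0564), and 2 to 5 without 1 library. The femur contrast kept 7 to 9 members lower in all settings, and sums per animal gave 0 throughout. Of 935 alternative values for the members 840 kept their direction and their side of the threshold.

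The replicate block used the library number in the titles. Libraries with the same number deviated together by -0.058 to 0.067 (18 pairs, Pearson's r), those with other numbers by -0.085 to 0.052, so the numbers do not pair the libraries. With the block the calls over all genes and both mice went from 850 to 641, and Gbp6 stood at -0.95 (adjusted p = 0.0669). No mouse term gave 74 calls.

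Signs turned, among the members, in changes that did not pass. Over both mice Gbp5 became 0.000803 with DESeq2 and Gbp7 -0.0193 with no mouse term. Leaving out 1 library gave log2 changes over both mice of -0.0480 to 0.0389 in Gbp3, -0.139 to 0.0490 in Gbp5, -0.0441 to 0.0812 in Gbp7 and -0.173 to 0.160 in Iigp1. On sums per animal the same genes gave -0.0333 to 0.0501, -0.0800 to 0.0456, -0.0253 to 0.0776 and -0.176 to 0.163. Irgm2 in mouse 19 ran from -0.176 to 0.0603. At 18 to 107 counts per group, Gbp6, Iigp1 and Tgtp1 were too shallow for small differences to be detectable.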
